A study of Rattus norvegicus with 4 samples.

Results

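The *Cyp4a* genes of the rat encode cytochromes P450 that hydroxylate the terminal carbon of fatty acids, and 4 of them, *Cyp4a1*, *Cyp4a2*, *Cyp4a3* and *Cyp4a8*, were followed in rat liver during inhalational anesthesia. The members were taken by symbol from the deposited gene tables and are 4 of the 16999 genes analysed. The family was chosen by the measured 6 h and 0 h values of *Cyp4a2* and *Cyp4a3*, which were lower after both agents, so the changes with anesthesia are given here as a description and no test of them was made. Liver RNA was sequenced from wild type rats anesthetized with 4.5% sevoflurane or 6% desflurane, halogenated ethers given by inhalation. Rats of the sevoflurane 0 h and desflurane 0 h groups were killed once they had lost consciousness, so the controls also inhaled the agent, and rats of the sevoflurane 6 h and desflurane 6 h groups stayed under anesthesia for 6 h. The strain, sex and age of the rats, and whether livers were pooled, were not given. Each group held 1 library, so every comparison sets 1 library against 1 other and no value has a replicate error. The series text states that livers of control and anesthetized rats were harvested 6 h apart, so duration of anesthesia and time of day cannot be told apart in any comparison of 6 h with 0 h.

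Omega-hydroxylation is the first step of a side route of fatty acid oxidation, in which the product is oxidized further by alcohol and aldehyde dehydrogenases to a dicarboxylic acid and shortened in peroxisomes. The same enzymes hydroxylate arachidonic acid to a lipid mediator that acts on blood vessels and the kidney. In rat liver the *Cyp4a* genes are classical targets of the fatty acid receptor PPARα, which binds DNA with its partner RXR, and of the fibrate drugs that activate it.

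Levels are given as TPM, a transcript abundance adjusted for both gene length and depth, which allows genes of 1 library to be compared. *Cyp4a2* stood at a TPM of 558 in sevoflurane 0 h, 76.9 in sevoflurane 6 h, 1075 in desflurane 0 h and 165 in desflurane 6 h. *Cyp4a3* stood at 503, 91.0, 966 and 170.2 in the same order. Both genes, which were chosen for being lower after both agents, were therefore high in both controls and low in both 6 h libraries. *Cyp4a1*, the member best known for its induction by fibrates, stood at 7.55, 15.1, 13.3 and 13.6, with only the sevoflurane control apart from the rest. *Cyp4a8* stood at 0.86, 0.59, 1.93 and 0.99 and stayed below a TPM of 2 throughout. The order of levels in each control was *Cyp4a2*, *Cyp4a3*, *Cyp4a1* and *Cyp4a8*, and in each 6 h library *Cyp4a3* came before *Cyp4a2*. The ratio of *Cyp4a2* to *Cyp4a3* was 1.11 in both controls, 0.84 in sevoflurane 6 h and 0.97 in desflurane 6 h, so this change of order rests on values that lie close together.

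**Figure D1:**
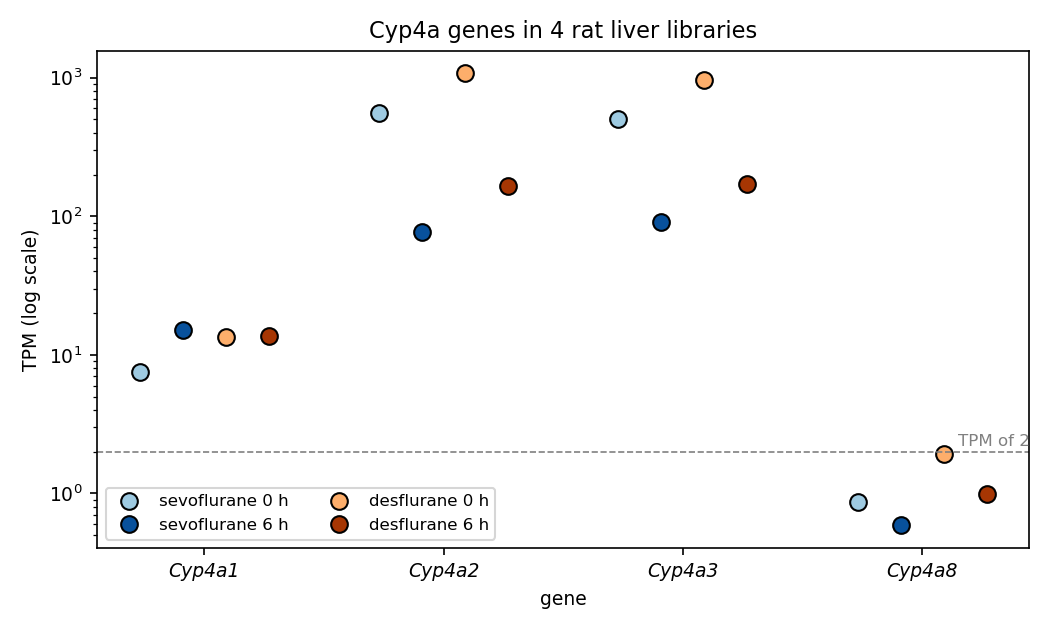
TPM (log scale) of the 4 *Cyp4a* genes, with 1 point for each library and a dashed line at the TPM of 2 used as a minimum. *Cyp4a2* and *Cyp4a3* lie at 503 or above in both controls and at 170.2 or below in both 6 h libraries, while *Cyp4a1* stays between 7.55 and 15.1 and *Cyp4a8* below the line.

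In the controls *Cyp4a2* was among the most abundant liver transcripts, ranking 120 of 16999 genes in sevoflurane 0 h and 66 in desflurane 0 h. Among the 74 cytochrome P450 genes it ranked 9 and 6. After anesthesia it ranked 847 and 486 among all genes and 28 and 23 among P450 genes. *Cyp4a1* kept nearly the same place among P450 genes, between 37 and 40 in the 4 libraries. The summed TPM of the 4 members was 7.87% of the P450 total in sevoflurane 0 h, 1.17% in sevoflurane 6 h, 13.4% in desflurane 0 h and 2.37% in desflurane 6 h. The rows of *Cyp4a2* and *Cyp4a3* overlap, as described below, so this sum can hold the same reads more than once. The size of its change is uncertain for that reason. The P450 total itself was 13599.8, 15699, 15299 and 14779, so the *Cyp4a* share changed far more than the total. Within the family *Cyp4a1* made up 0.71% of the summed TPM in sevoflurane 0 h and 0.65% in desflurane 0 h, and 8.24% and 3.88% after 6 h.

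The mean read coverage behind these values was 1316, 263, 3709 and 601 per base for *Cyp4a2* and 1187, 311, 3333 and 619 for *Cyp4a3*. *Cyp4a1* was covered 17.8, 51.7, 46.1 and 49.4 times. *Cyp4a8* was covered between 2.02 and 6.65 times, which leaves its values the least precise of the family. Coverage is not scaled for depth, and the sevoflurane 0 h library was the shallowest, with 3.50 Gb of aligned bases implied by its table against 5.29 to 5.57 Gb in the others.

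Each 6 h library was set against the 0 h library of its own agent. A gene was called where the larger TPM was over 2 and its ratio to the smaller TPM was over 2, and 3 of the 4 members reached that minimum in each comparison, *Cyp4a8* being the exception. With sevoflurane 2 members were called lower and 1 higher, where 3.71% of the 8270 genes above the minimum were called lower and 5.04% higher (8.75% in either direction). *Cyp4a2* was 7.26-fold lower, a change of -2.84 in log2(TPM + 1), and *Cyp4a3* was 5.53-fold lower, a change of -2.45. These were the 9th and 15th largest decreases by log2 change among the genes called lower. With desflurane 2 members were called lower and 0 higher, where 5.55% of 8372 genes were called lower and 4.1% higher (9.65% in either direction). *Cyp4a2* was 6.50-fold lower, a change of -2.69, and *Cyp4a3* was 5.68-fold lower, a change of -2.50, and they again held the places 9 and 15. With the 0 h libraries exchanged between agents the changes were -3.79 and -3.39 with sevoflurane and -1.75 and -1.56 with desflurane, so both genes stayed called.

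*Cyp4a1* was the only member called higher with sevoflurane, with a ratio of 2.003 that lay just past the rule. It was not called with a scaling by the median of ratios, with a rescaling to named genes without the abundant *Rn7sl1*, or with a ratio of 3. Against the desflurane control its log2 change with sevoflurane was 0.17 in place of 0.92. With desflurane its change was 0.02. *Cyp4a8* was 1.46-fold lower with sevoflurane and 1.96-fold lower with desflurane, at levels under the minimum, and its change with desflurane turned to 0.09 against the sevoflurane control.

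The difference between the controls, both killed at loss of consciousness, gives the only view of how far 2 libraries differed without 6 h of anesthesia. All 4 members were higher in desflurane 0 h than in sevoflurane 0 h, as were 69.3% of the 9201 genes whose TPM averaged 1 or more. *Cyp4a1* was 1.77-fold higher, *Cyp4a2* 1.93-fold, *Cyp4a3* 1.92-fold and *Cyp4a8* 2.23-fold. None was called, where 2.76% of 8263 genes were called in either direction (1.96% higher and 0.799% lower). Over the 9201 genes whose TPM averaged 1 or more, the median was 0.11 higher in this comparison on the log2 scale, and was 0.05 with sevoflurane and -0.10 with desflurane. After 6 h, *Cyp4a2* was 2.15-fold higher with desflurane than with sevoflurane and was called, where 2.21% of 8229 genes were called higher (3.99% in either direction), and *Cyp4a3* was 1.87-fold higher and was not. Whether these ratios differ from those between the controls could not be tested with 1 library each.

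The members lie in a cluster on chromosome 5 of the rn6 assembly, and the rows of *Cyp4a2* and *Cyp4a3* overlap. In the deposited tables *Cyp4a2* spans chr5:134196910-134207863 and *Cyp4a3* spans chr5:134196915-134484851, both on the minus strand. The row of *Cyp4a3* is 287937 bp long against 10954 bp for *Cyp4a2*, and 99.95% of the *Cyp4a2* row lies inside it. *Cyp4a8* spans chr5:133978953-134008255 on the minus strand and *Cyp4a1* spans chr5:134492756-134507154 on the plus strand, and neither overlaps another member. In the reference gene table of another assembly, GRCr8, *Cyp4a3* and *Cyp4a2* are separate genes, with *Cyp4a2l1* and a pair of *Cyp4a2* pseudogenes between them and *Cyp4a3* next to *Cyp4a1*. *Cyp4a2l1* was not analysed here, and how reads shared by these copies were divided is not known. The tables can also give the same reads to more than 1 named row. Of the 14 places in sevoflurane 0 h where 2 or more named genes have the same ends and strand and a TPM above 1, 12 gave all of them the same TPM within 1%. The same held for 9 of 12 places in sevoflurane 6 h, 8 of 11 in desflurane 0 h and 12 of 14 in desflurane 6 h.

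The sequences before the gene starts show how alike the copies are. Windows from 250 bases before to 50 bases after the gene start were taken from RefSeq on GRCr8, for the members found there, and all are on the minus strand: *Cyp4a2* (chr5:134170859-134171158), *Cyp4a3* (chr5:134352187-134352486) and *Cyp4a8* (chr5:133970177-133970476). They are printed 5′ to 3′ because *Cyp4a2* and *Cyp4a3* moved together and *Cyp4a8* is the distant member, and capitals mark AGGTCA, the hexamer whose repeat makes up the element bound by PPARα and RXR.
Cyp4a2: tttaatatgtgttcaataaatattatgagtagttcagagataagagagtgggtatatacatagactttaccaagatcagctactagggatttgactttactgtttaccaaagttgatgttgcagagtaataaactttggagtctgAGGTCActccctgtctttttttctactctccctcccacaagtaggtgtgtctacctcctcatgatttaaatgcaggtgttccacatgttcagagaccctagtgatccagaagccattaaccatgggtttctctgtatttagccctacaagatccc
Cyp4a3: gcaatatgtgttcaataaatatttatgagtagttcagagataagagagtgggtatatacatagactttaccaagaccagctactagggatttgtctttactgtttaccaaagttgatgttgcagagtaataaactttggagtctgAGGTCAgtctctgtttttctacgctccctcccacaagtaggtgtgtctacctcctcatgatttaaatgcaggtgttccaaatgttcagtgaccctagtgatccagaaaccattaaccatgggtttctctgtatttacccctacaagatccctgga
Cyp4a8: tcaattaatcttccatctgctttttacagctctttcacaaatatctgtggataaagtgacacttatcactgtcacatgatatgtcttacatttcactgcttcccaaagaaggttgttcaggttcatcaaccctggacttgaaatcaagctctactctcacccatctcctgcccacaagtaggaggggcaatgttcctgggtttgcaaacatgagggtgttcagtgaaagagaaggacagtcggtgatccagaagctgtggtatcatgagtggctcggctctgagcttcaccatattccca
*Cyp4a2* and *Cyp4a3* were identical at 284 of 295 aligned bases (96.3%), and *Cyp4a2* and *Cyp4a8* at 172 of 282 (61.0%). The windows of *Cyp4a2* and *Cyp4a2l1* were identical at all 264 aligned bases. AGGTCA, searched on both strands, occurred once in *Cyp4a2* and once in *Cyp4a3*, starting at position 146 of each window, 105 bases before the gene start, and was not found in the window of *Cyp4a8*. It occurs in 16.2% of the 33469 windows of this length in the table, so its presence is common. The element DR1, a direct repeat of that hexamer with 1 base between the copies, was searched on both strands as an exact match. Each copy in DR1 also counts as a match of AGGTCA. DR1 was found in none of the printed windows and in 18 of all windows (0.054%). Imperfect repeats and bases outside the windows were not searched, and no window of *Cyp4a1* was found, so binding by PPARα was not tested.

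Beside the named rows, the tables list loci assembled from the reads of each library, without a gene name, which describe much of the same signal a second way. Of the named rows above a TPM of 1, between 99.4% and 99.7% had an assembled locus on the same strand. Over *Cyp4a2* lay 1 assembled locus in each library, which also reached the far end of the *Cyp4a3* row, and in both desflurane libraries it began over *Cyp4a8*, at chr5:133979463 and chr5:133979625. Its TPM was 565 in sevoflurane 0 h, 101 in sevoflurane 6 h, 1131 in desflurane 0 h and 437.3 in desflurane 6 h. In sevoflurane 0 h, sevoflurane 6 h and desflurane 0 h it came to 53.3%, 59.9% and 55.4% of the summed TPM of the named *Cyp4a2* and *Cyp4a3* rows. In desflurane 6 h it came to 130.4% of that sum.

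A further locus lay inside the span of *Cyp4a3*, near its *Cyp4a1* end and away from *Cyp4a2*, in 3 of the libraries. It ran over chr5:134468260-134476540 in sevoflurane 0 h, chr5:134467480-134476479 in sevoflurane 6 h and chr5:134469092-134476663 in desflurane 0 h, always on the minus strand. Its TPM was 186 in sevoflurane 0 h, 215 in sevoflurane 6 h and 437.1 in desflurane 0 h. With sevoflurane it was 1.16-fold higher at 6 h, while the locus over *Cyp4a2* was 5.62-fold lower. In desflurane 6 h no separate locus was assembled there. The locus over *Cyp4a2* spanned this place in every library. Between the controls the locus inside the *Cyp4a3* span was 2.35-fold higher in desflurane 0 h, a ratio in the same direction as those of the named members.

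The 2 loci together came to a TPM of 751 in sevoflurane 0 h, 315 in sevoflurane 6 h, 1568 in desflurane 0 h and 437.3 in desflurane 6 h. The total was 2.38-fold lower after sevoflurane and 3.58-fold lower after desflurane, where the sum of the named rows was 6.32-fold and 6.08-fold lower. The direction was the same in both descriptions, and the size of the decrease was not. Between the controls the total of the loci was 2.09-fold higher in desflurane 0 h, and between the 6 h libraries it was 1.39-fold higher with desflurane. The locus over *Cyp4a2* alone was 4.35-fold higher with desflurane at 6 h, where no separate second locus was assembled. The named *Cyp4a2* row was 2.15-fold higher. *Cyp4a1* had an assembled locus of its own with a TPM of 7.37, 17.1, 14.1 and 13.4, close to its named row in each library. The named rows summed to more than the loci in both controls and to less in both 6 h libraries. The part of the overlap of rows, and of reads shared between copies, in the values of *Cyp4a3* was not tested.

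**Figure D2:**
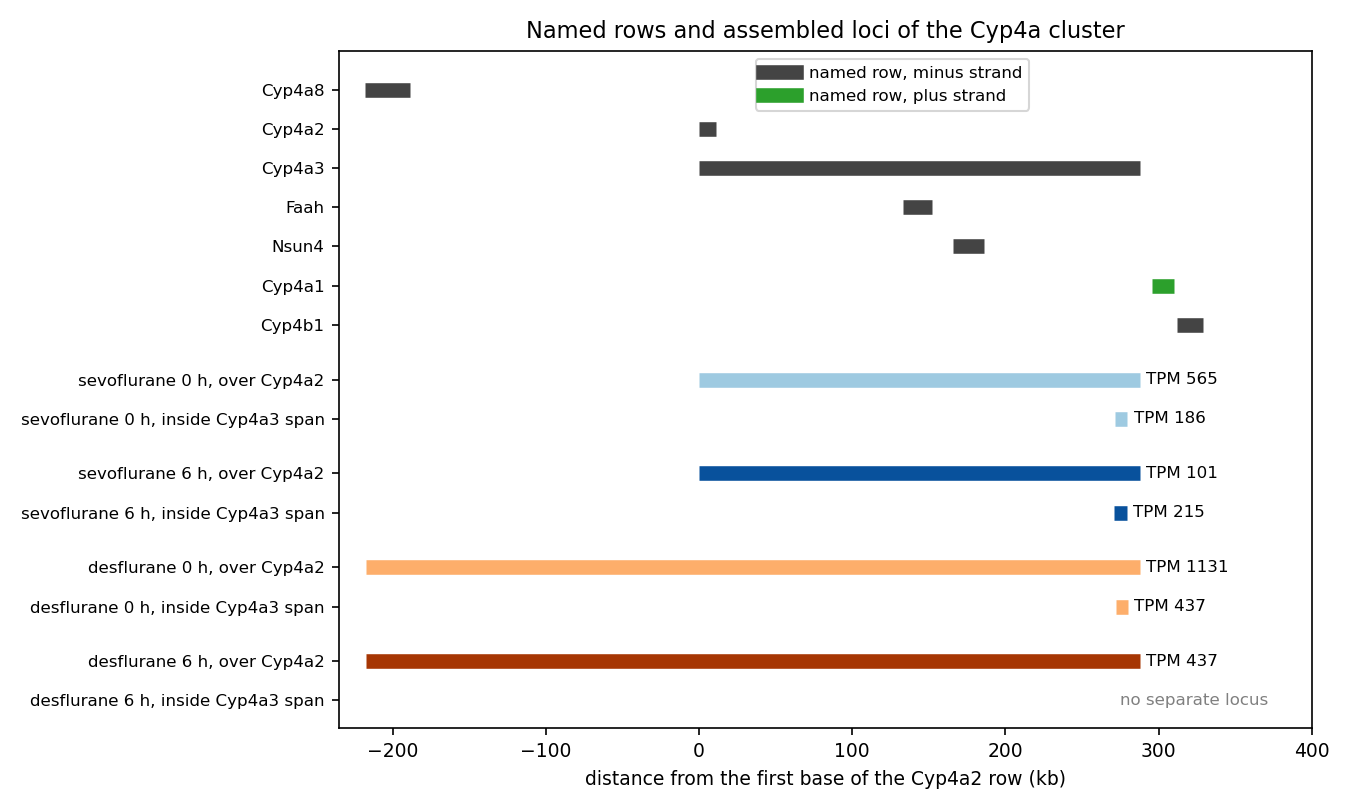
Spans of named rows (top, minus strand grey, plus strand green) and of the assembled loci of each library (bottom, with their TPM), by distance in kb from the first base of the *Cyp4a2* row. The *Cyp4a3* row contains *Cyp4a2*, *Faah* and *Nsun4*, and a short locus near its right end has a TPM of 186, 215 and 437 in 3 libraries and no separate counterpart in desflurane 6 h.

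**Figure D3:**
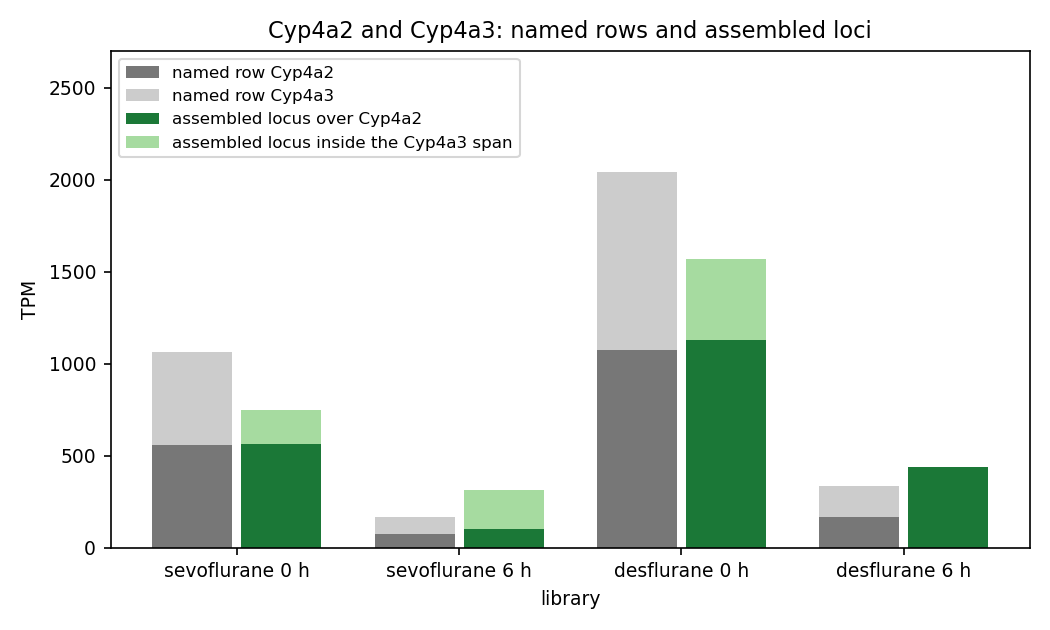
Stacked TPM of the named *Cyp4a2* and *Cyp4a3* rows (grey) and of the assembled loci of the same region (green) in each library, with a single value behind each segment. Named rows total 1061, 168, 2041 and 335, and loci total 751, 315, 1568 and 437, in the order of the libraries from left to right.

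Neighbors in the cluster did not share the decrease. *Faah*, which encodes the hydrolase of fatty acid amides and lies inside the *Cyp4a3* span on the same strand, stood at a TPM of 20.7, 20.8, 20.3 and 17.2. *Nsun4*, a methyltransferase that acts in mitochondria and also lies inside the span, stood between 1.997 and 2.67. *Cyp4b1*, the next P450 gene after *Cyp4a1* with 1573 bp between their rows, went from 4.59 to 11.7 with sevoflurane and was called higher, and from 6.17 to 12.1 with desflurane, a ratio of 1.96 that was not called. *Faah* and *Nsun4* were named for their place inside the *Cyp4a3* row.

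Of the other *Cyp4* genes 11 of 12 were found, and 6 averaged a TPM of 1 or more. *Cyp4f1*, the most abundant of them and named after its values were seen, stood at 179.7 in sevoflurane 0 h, 184 in sevoflurane 6 h, 192 in desflurane 0 h and 209 in desflurane 6 h. *Cyp4f6* went from 58.5 to 32.0 with sevoflurane, not called, and fell from 79.1 to 38.1 with desflurane. By the rule 1 gene of the 5 above the minimum was higher and 0 lower with sevoflurane, and 0 of 5 were higher and 1 lower with desflurane. Of all genes, 5.04% were higher and 3.71% lower with sevoflurane, and 4.1% and 5.55% with desflurane. The median change of the 6 genes was 0.17 with sevoflurane and 0.27 with desflurane, beside -2.84 and -2.69 for *Cyp4a2*. The *Cyp4f* genes encode hydroxylases of leukotrienes and other fatty acids.

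The enzymes that take over after omega-hydroxylation were followed as a list of 31 symbols, 30 of them averaging a TPM of 1 or more. Calls were 2 higher and 2 lower after sevoflurane, and 1 higher and 1 lower after desflurane, against the shares of all genes given above. The list median was 0.06 with sevoflurane and -0.01 with desflurane. *Adh1*, the main alcohol dehydrogenase of liver, fell from 451 to 103 with sevoflurane and went from 254 to 136 with desflurane, a ratio of 1.87 that was not called. *Adh7* fell with both agents, from 12.6 to 2.51 and from 9.16 to 4.11. *Adh4* went from 12.8 to 12.0 and from 12.2 to 6.27, not called. *Aldh3a2*, the fatty aldehyde dehydrogenase of the next step, stood at 267 and 377 with sevoflurane and at 257 and 309 with desflurane.

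Peroxisomal enzymes of the same list were read next. *Ehhadh*, the bifunctional enzyme needed for dicarboxylic acids, stood at a TPM of 125, 102, 114 and 90.6, and *Acaa1a*, the thiolase, at 127, 189, 144 and 196. Neither gene was called with either agent. *Pex11a*, a factor of peroxisome division, was the list's single call higher with desflurane, from 6.23 to 13.5. *Acot4* and *Acot3*, thioesterases, were called higher with sevoflurane, from 5.49 to 11.9 and from 1.56 to 3.37. Their values in the desflurane control, 11.0 and 3.55, were also called higher than in the sevoflurane control, so these calls move with the sevoflurane control library.

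Other known PPARα targets, mostly of mitochondrial fatty acid oxidation and ketogenesis, formed a list of 38 symbols, 35 of them averaging a TPM of 1 or more. After sevoflurane 1 of the 34 above the minimum was called higher and 6 lower, where 5.04% of all genes were higher and 3.71% lower. After desflurane 4 of 35 were higher and 1 lower, where 4.1% of all genes were higher and 5.55% lower. The median was 0.00 with sevoflurane and 0.06 with desflurane. *Cpt1a*, which admits fatty acids to mitochondria, rose in both pairs, from 27.9 to 249.5 after sevoflurane and from 77.6 to 251 after desflurane. *Fabp1*, the liver fatty acid binding protein, stood at 7074, 5883, 7975 and 5999, with no call. *G0s2*, an inhibitor of lipolysis, was the only gene of the list called lower with both agents, from 281 to 56.9 and from 172 to 60.5.

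*Angptl4*, a secreted inhibitor of lipoprotein lipase, fell from 74.5 to 24.3 with sevoflurane and went from 38.7 to 28.1 with desflurane. *Plin2*, a lipid droplet coat protein, fell from 199 to 86.6 and went from 269.8 to 209. *Fgf21*, a fasting hormone, fell from 25.1 to 2.59 after sevoflurane, while its desflurane values were 5.94 and 5.52, so its control values were far apart. *Acot1* went from 1.69 to 2.75 with sevoflurane and was called higher with desflurane, from 0.84 to 2.53. *Gpd1* rose with desflurane from 196 to 529. *Vnn1* stood between 7.09 and 13.8. *Pdk4*, which restrains pyruvate oxidation, stood at 12.6 and 5.23 with sevoflurane and was called lower, and at 8.55 and 15.0 with desflurane, not called.

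**Figure D4:**
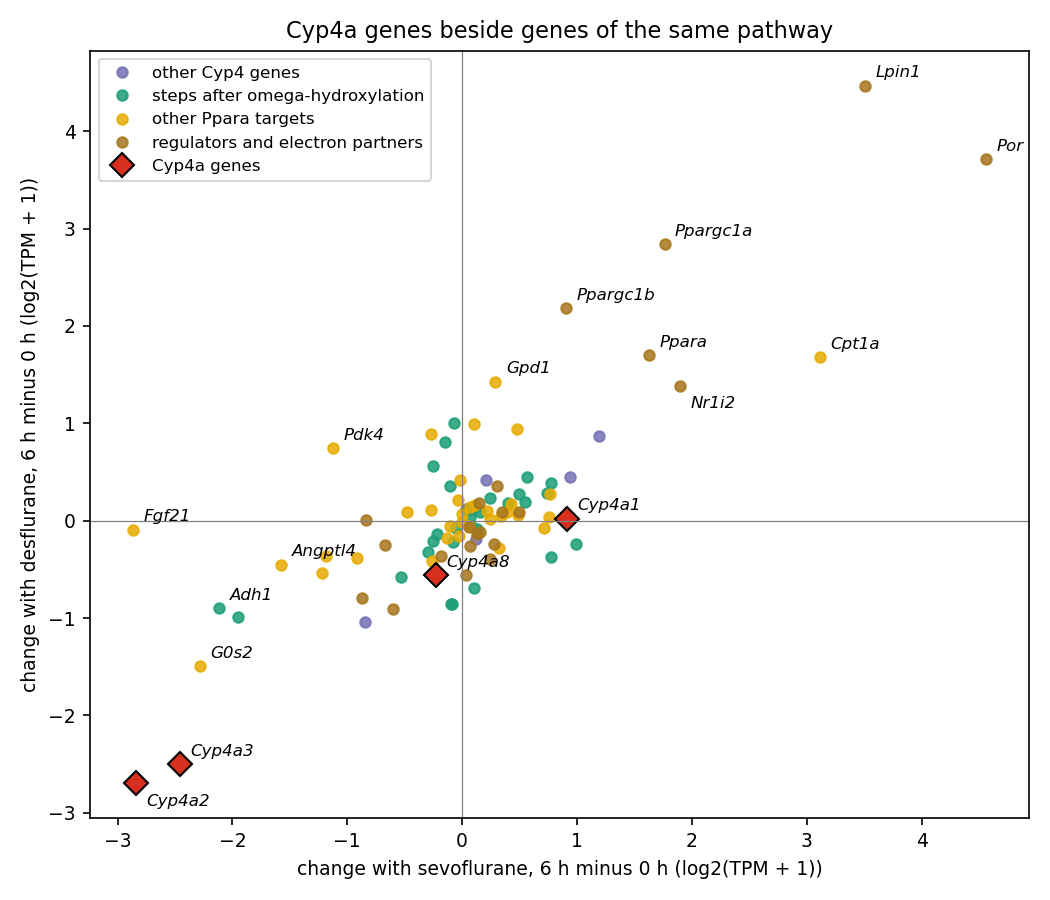
Change of log2(TPM + 1) with sevoflurane (horizontal axis) and desflurane (vertical axis), 6 h minus 0 h, for the *Cyp4a* genes (red diamonds) and for genes of 4 pathway lists that averaged a TPM of 1 or more (circles), 1 pair of libraries for each agent. *Cyp4a2* and *Cyp4a3* lie at the lower left (-2.84 and -2.69, -2.45 and -2.50), *Cyp4a1* and *Cyp4a8* near the bulk of the genes, and *Ppara* at the upper right (1.63 and 1.70).

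Of the regulators and electron partners, 6 were called higher and 1 lower of 22 above the minimum with sevoflurane, where 5.04% of all genes were higher and 3.71% lower. With desflurane 6 were higher and 1 lower of 20, where 4.1% of all genes were higher and 5.55% lower. *Ppara*, which encodes the receptor that the *Cyp4a* genes are known to respond to, rose in both pairs, from 9.70 to 32.1 after sevoflurane and from 12.7 to 43.6 after desflurane. Its RNA was therefore 3.30-fold and 3.42-fold higher in the same libraries in which *Cyp4a2* was 7.26-fold and 6.50-fold lower. *Rxra*, its partner, stood at 55.5, 68.7, 59.0 and 76.0. *Lpin1*, a coactivator of PPARα and phosphatidate phosphatase, rose from 5.58 to 74.0 and from 7.43 to 186. *Por*, the reductase that passes electrons to P450 enzymes, rose from 21.8 to 538 and from 28.6 to 386. *Ppard* was called lower with sevoflurane, from 2.44 to 0.93, and *Rxrg* with desflurane, from 6.96 to 3.24.

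Some *Cyp4a* genes of the rat, *Cyp4a2* above all, are known to differ between male and female livers under the control of growth hormone, so 13 genes of that kind were also read. With sevoflurane 1 of the 11 above the minimum was called higher and 1 lower, and with desflurane 0 of 12 higher and 3 lower, against the same shares of all genes. *Socs2*, a feedback inhibitor induced by growth hormone, fell in both pairs, from 44.5 to 12.5 after sevoflurane and from 29.8 to 8.98 after desflurane. *Igfals*, the carrier subunit of the growth factor IGF-I, went from 140.3 to 90.8 with sevoflurane, not called, and fell from 164 to 73.5 with desflurane. The abundant male P450 gene *Cyp2c11* stood at 1772, 1936, 1365 and 1520.5, and *Cyp2c12*, known from female liver, rose from 49.2 to 111 after sevoflurane and stood at 27.3 and 20.5 with desflurane. *Cyp2c11* was chosen after its values were seen.

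The genes with a pattern over the 4 libraries most like each member were found by the distance between profiles of log2(TPM + 1), each centered on its own mean, among 3993 other genes averaging a TPM of 10 or more (3994 for *Cyp4a8*). For *Cyp4a2* these were *Cyp4a3* at a distance of 0.32, *Slc34a2*, a phosphate transporter, at 0.67 and *Chka*, a choline kinase, at 0.96. For *Cyp4a3* they were *Cyp4a2* at 0.32, *Slc34a2* at 0.65 and *Irf1*, an interferon regulatory factor, at 0.79. For *Cyp4a1* they were *Creb3l3* at 0.16, a liver transcription factor that is itself on the list of PPARα targets, *Pdxk* at 0.19 and *Nup50* at 0.20. For *Cyp4a8* they were *Cyp2d1* at 0.16, *Inhbc* at 0.17 and *Lcn12* at 0.17. The scale of log2(TPM + 1) shrinks the profile of so low a gene. Its changes were -0.23 with sevoflurane and -0.56 with desflurane, and -0.48 and -0.90 with 0.1 added in place of 1. Its small distances therefore say little about likeness. *Creb3l3* stood at 127, 216, 187 and 191. The neighbors of *Cyp4a2* and *Cyp4a3* were genes lower after both agents. This follows from the choice of these members for that same pattern, and the overlap of their rows bears on their likeness to each other. The neighbors of *Cyp4a1* were genes that were low in the sevoflurane control alone. With 4 libraries such likeness is a description.

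Markers of the tissue were read in every library. Hepatocyte markers were high throughout, with albumin between 53282 and 58868. None of the 6 was called with either agent, where 8.75% of all genes were called in either direction with sevoflurane and 9.65% with desflurane. With sevoflurane 3 of the 6 were higher and 3 lower, and *Apoa1* changed most, from 1173 to 2164, a ratio of 1.84. In a piece of liver, fewer cells of a type and less RNA per cell cannot be told apart. The 4 markers of T and NK cells summed to 8.92 and 7.36 in the controls and 3.43 and 3.05 after 6 h. Of those above the minimum, 3 of 3 were called lower after sevoflurane and 2 of 2 after desflurane, beside 3.71% and 5.55% of all genes. These markers passed the minimum through their control values alone, which were no higher than 3.81, so they could not have been called higher. *Nkg7*, under the minimum with desflurane, went the other way there, from 0.94 to 1.51. The T cell marker *Cd3e* was listed at 0 in both controls and at no more than 0.0575 after 6 h. The 3 markers of red blood cells summed to 453 and 728 in the controls and 1214 and 1342 after 6 h. All 3 were called higher after sevoflurane and 0 after desflurane, beside 5.04% and 4.1% of all genes. Summed markers were between 6.61 and 8.08 for cholangiocytes, 44.4 and 55.0 for sinusoidal endothelium, 179 and 234 for Kupffer cells and 28.0 and 30.7 for stellate cells, of which *Pdgfrb* was called lower with sevoflurane, and the 2 B cell markers found summed to at most 0.58. The part of blood cells in the *Cyp4a* values was not tested. Of 13 clock genes above the minimum, 9 were called higher and 3 lower after sevoflurane, and 8 and 1 after desflurane, beside 5.04% and 3.71%, and 4.1% and 5.55%, of all genes. The clock output gene *Dbp* went from 0.40 to 87.9 and from 1.92 to 44.8, and *Arntl* from 22.6 to 0.43 and from 17.6 to 2.14. Both genes differed between 0 h and 6 h with each agent, as *Cyp4a2* and *Cyp4a3* did, while *Cry1*, which reached the minimum, was called with neither agent. *Npas2* could not be called, because its TPM stayed below 2 in every library. At these low levels it was 10.3-fold lower after sevoflurane and 5.88-fold lower after desflurane, the same direction as *Arntl*. The part of time of day in the *Cyp4a* values was not tested.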

How the data were processed

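Liver RNA was sequenced in 4 libraries, and 1 gene table per library was used, assigned to a group by the sample title. Libraries were made from total RNA with a stranded kit, per the labels. The submitters' processing notes list the rn6 build and the tools HISAT2, SAMtools and StringTie, with no version, setting or annotation. The authors deposited coverage (mean depth per base, not scaled), FPKM and TPM for named genes and for loci assembled in each library. The deposited TPM column was handled as a score, because the assembled loci alone sum to 1000000 and named genes add 76.6% to 78.9% of that. With Python 3.11.15 and pandas 2.3.3, rows of 1 symbol were summed and rows of 200 bp or less left out, which took 17455 symbols to 16999. A gene was called when the larger TPM was above 2 and the ratio above 2. No p-value was computed, since each group has 1 library. Log2 changes are of log2(TPM + 1), which understates changes of low genes. Read counts were not used here, so values carry no counting interval. Promoter windows came from RefSeq on GRCr8 and were aligned with Biopython 1.88. The planned protein alignment was not run, since no protein sequences were used here. The steps were tested on simulated data.

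The members, the 8 pathway lists (155 of 157 symbols found) and the rules were chosen with earlier results of these data known. Genes named were the members, a fixed set of pathway genes, the 2 largest called changes per list, agent and direction, and the 3 genes nearest in pattern to each member, 58 in all, of which some are not reported. Genes of the cluster and markers were named besides. Alternatives were another minimum, ratio, scaling, control, row handling and pseudocount.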

Additional observations from a re-analysis of the deposited data

Results flagged for a closer look

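Among the genes named by the rule, 6 were called with at least 1 agent, changed in the opposite direction with the other and did so by more than 0.1 on the log2 scale with both. These differences between agents were not tested, since each agent had 1 pair of libraries. *Pdk4*, a kinase that holds back pyruvate oxidation and a PPARα target, changed by -1.12 with sevoflurane and 0.75 with desflurane on the log2 scale, a difference of 1.87. *Acot4* changed by 0.99 and -0.24, a difference of -1.23, and *Acot3* by 0.77 and -0.38, a difference of -1.14. *Cyp2c12* changed by 1.16 and -0.40, a difference of -1.56. *G6pc*, the phosphatase that releases glucose, changed by -0.48 and 1.70, a difference of 2.19. *Nfil3*, a clock output repressor, changed by -1.11 and 0.23, a difference of 1.33. No *Cyp4a* gene was in this group, which *Cyp4a2* and *Cyp4a3*, chosen for being lower with both agents, could not enter.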

How the results depend on the processing

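*Cyp4a2* and *Cyp4a3* were chosen for their decreases, so the alternatives describe those values and do not test them. The decreases kept their direction and stayed called in 48 of 48 combinations of gene, agent and alternative. Among the alternatives were 2 chosen after seeing the data that put assembled loci in place of the named rows. At these levels another minimum TPM or row handling returned the same log2 changes. The pseudocount does not enter the calls, so with these alternatives the calls could not differ. Where rows were summed or replaced by loci, both genes take the same value, so these are not separate checks of *Cyp4a3*, and the locus inside the *Cyp4a3* span, 1.16-fold higher with sevoflurane, was not used alone. The log2 change of *Cyp4a2* ranged from -3.79 to -1.25 after sevoflurane and from -2.70 to -1.37 after desflurane, and that of *Cyp4a3* from -3.39 to -1.25 and from -2.60 to -1.37, and the smallest values came from assembled loci. The count of members higher with sevoflurane, which is *Cyp4a1*, went from 1 to 0 with a ratio above 3, a scaling by the median of ratios, a rescaling without *Rn7sl1*, or the control of the other agent. Between controls the count of members higher in desflurane 0 h went from 0 to 1, *Cyp4a8*, without a minimum TPM and with the rescaling, and between agents at 6 h from 1 to 0 with a ratio above 3. *Cyp4a8* with desflurane reversed to 0.092 against the control of the other agent. Of the 155 pathway genes found, 25 were higher and 13 lower with sevoflurane, beside 5.04% and 3.71% of all genes above the minimum. With desflurane 26 were higher and 10 lower, beside 4.1% and 5.55%. Clock genes made up 9 of the 25 and 8 of the 26. With a ratio above 3 the counts became 15 and 7 with sevoflurane and 16 and 4 with desflurane. Without a minimum TPM, 20 and 19 were lower. The shares of all genes were not computed for these other settings, so those counts have no background beside them. No paired analysis was possible because each group has 1 library and the labels give no replicate numbers, and for the same reason no replicate could be left out. The sevoflurane 0 h library was the shallowest, which limits low values.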

Other observations

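*Cyp4a* genes are known to be expressed mainly near the central vein of the liver lobule, and markers of the lobule's zones were read beside them. Pericentral markers above the minimum numbered 10 for sevoflurane and 11 for desflurane. Of these, 2 were called higher and 0 lower after sevoflurane, and 3 and 1 after desflurane. *Oat*, an aminotransferase of ornithine, rose in TPM with both agents, from 139 to 402 and from 108 to 305. *Cyp7a1*, the first enzyme of bile acid synthesis, rose from 41.2 to 186 with sevoflurane and went from 31.4 to 59.1 with desflurane, not called. *Slc1a2*, a glutamate transporter, rose from 1.48 to 5.60 with desflurane, and *Tbx3* was lower there, from 2.04 to 0.37. Of 11 periportal markers 3 were called higher and 0 lower after sevoflurane, and 4 and 1 after desflurane. *Arg1*, the last enzyme of the urea cycle, rose from 708 to 2104 and from 886 to 1822. *Cyp2f4* was called lower with desflurane, from 26.5 to 11.1. The median changes were -0.01 and 0.13 for pericentral and 0.25 and 0.51 for periportal markers, with sevoflurane and desflurane in that order, beside 0.05 and -0.10 over all genes. The shares of all genes called were 5.04% higher and 3.71% lower with sevoflurane, and 4.1% and 5.55% with desflurane.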
